A study of Mus musculus with 10 samples.

Results

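The 40 genes described here are classical targets of type I interferon, listed by symbol, and all 40 were found among the 27919 genes of the deposited expression table. They were followed in 10 RNA sequencing libraries from 7 tumors of B16F10, a mouse melanoma line. In 4 tumors the line overexpressed Ly86, and in the other 3 it carried the vector. Mice of both groups were treated alike, with 4 rounds of anti-PD-1 plus anti-CTLA4, a combination that releases brakes on T cells. The host strain, the animals' age, the promoter of the construct and the number of clones are not given in the sources used here, nor is it stated that each tumor came from a different mouse. Of the tumors, 3 had been divided and sequenced as 2 pieces each (the first of the Ly86 group and the first and second of the vector group), and the pieces were averaged on the log2 scale so that the tumor was the replicate. The measure was TPM, transcripts per 1000000 of a library corrected for gene length, and differences are Ly86 minus vector on the log2(TPM + 1) scale. TPM does not retain read depth, so the depth behind each value is unknown.

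Type I interferons are secreted by infected or stressed cells and bind the receptor IFNAR on nearly every cell type. The receptor's kinases JAK1 and TYK2 activate the factor ISGF3, of which STAT2 and IRF9 are subunits. ISGF3 binds the interferon-stimulated response element, or ISRE, in target promoters. Many of these targets also respond to interferon gamma. In tumors they are expressed by malignant cells, leukocytes and stroma alike, so in bulk RNA a smaller number of responding cells and less RNA per cell cannot be told apart.

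Promoter windows from RefSeq (build GRCm38.p6, 250 bases before to 50 after an annotated start) were matched by symbol for 29 of the 40 genes. The ISRE core was searched on both strands as GAAA, any 2 bases and GAAA again, which reads as TTTC, any 2 bases and TTTC from the other strand. It occurred in 16 of the 29 genes (55.2%), against 3.99% of the 27025 genes with a window. The gamma-activated site, TTCNNNGAA, which reads the same on both strands, occurred in 7 of the 29 (24.1%), against 9.55% of all genes. Matches of the ISRE core can overlap each other and are counted separately. The stretches below show genes with 2 or 3 matches before the start, the near-identical pairs among them, and Rsad2 as an example of a single match, 5′ to 3′ in the direction of the gene, with every ISRE core match in capitals and up to 10 bases on each side. They stop at the base before the annotated start.
Isg15: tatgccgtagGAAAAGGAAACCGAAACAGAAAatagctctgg
Ifit1: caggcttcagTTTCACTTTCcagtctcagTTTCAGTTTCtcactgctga
Ifit3: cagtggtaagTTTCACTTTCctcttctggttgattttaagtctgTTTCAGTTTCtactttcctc
Ifit3b: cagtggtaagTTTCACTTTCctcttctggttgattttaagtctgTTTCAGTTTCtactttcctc
Oas1a: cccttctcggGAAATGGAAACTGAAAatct
Oas1g: cccttctcggGAAATGGAAACTGAAAat
Bst2: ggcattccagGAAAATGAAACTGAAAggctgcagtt
Rsad2: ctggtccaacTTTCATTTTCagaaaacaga
In Isg15, at chr4:156200865-156200906 (minus strand), 3 matches overlap head to tail and begin 78 to 66 bases before the start. Ifit1, at chr19:34640775-34640823 (plus strand), holds 2 separate matches, and so do Ifit3 at chr19:34583363-34583426 (plus strand) and Ifit3b at chr19:34607759-34607822 (plus strand). The Ifit3 and Ifit3b stretches are the same in every base. Oas1a, at chr5:120907526-120907555 (minus strand), and Oas1g, at chr5:120887614-120887641 (minus strand), share the same overlapping pair of matches close to the start. Bst2, at chr8:71537577-71537612 (minus strand), has an overlapping pair and Rsad2, at chr12:26456553-26456582 (minus strand), a single match. The 13 genes with a window and no match were Cmpk2, Dtx3l, Herc6, Ifi35, Ifi44, Ifit2, Irf7, Irf9, Isg20, Oasl1, Oasl2, Samd9l and Xaf1, which says only that these letters are not in these windows. The median group difference, given in full further on, was 0.79 for the 16 genes with a match and 0.79 for those 13.

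Libraries are given in a fixed order: the first and second piece of Ly86 tumor 1 and Ly86 tumors 2, 3 and 4, then the first and second pieces of vector tumor 1 and of vector tumor 2 and vector tumor 3. Ly86, which encodes the secreted protein MD-1, had 49.1, 81.9, 53.2, 58.9 and 75.4 TPM in the Ly86 libraries, against 6.24, 9.88, 80.9, 7.85 and 30.3 TPM in the vector libraries. Vector tumor 2 thus held 1 piece inside the Ly86 range and 1 far below it. The difference was 1.69 (SE 0.40, limma adjusted p = 0.437), and the tumor groups did not overlap (two-sided exact permutation p = 0.0286, the smallest that 35 assignments allow). The vector tumors held Ly86 without the construct, and this measure does not separate its RNA from that of the mouse's own gene. Mean macrophage marker level was 8.02 and 4.27 log2(TPM + 1) in the pieces of vector tumor 2. The groups also did not overlap for 5 of 11 macrophage markers, against 4.71% of all genes. The melanocyte genes Mlana, Pmel, Dct, Tyr and Tyrp1 were abundant throughout, with summed levels of 13228 to 19282 TPM in Ly86 libraries and 9454 to 18300.0 TPM in vector libraries.

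All 40 interferon stimulated genes averaged higher in the Ly86 tumors, and none passed the test. Their mean level was 5.61, 5.72, 5.09 and 5.70 log2(TPM + 1) in Ly86 tumors 1 to 4, against 3.49, 5.37 and 4.93 in vector tumors 1 to 3. Vector tumor 1 was far below the rest, and Ly86 tumor 3 lay below vector tumor 2. The group means were 5.53 ± 0.30 (SD, n = 4) for Ly86 and 4.60 ± 0.98 (SD, n = 3) for vector, a difference of 0.93 that is smaller than the spread among the vector tumors. No p is given for this mean, since the genes were chosen with earlier results of these data known. Single differences ranged from 0.18 to 1.60 with a median of 0.86, where the median of all 14556 genes tested was -0.04.

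Across the transcriptome limma passed 0 genes in either direction (0%) at an adjusted p of 0.05, and 1565 reached an unadjusted p below 0.05. Among the 40 genes, 16 reached that unadjusted level, all higher in Ly86 tumors, where 5.78% of all genes did so on that side. None did so on the lower side, where 4.97% of all genes did. The 16 were Slfn5, Ifi27l2a, Ifit1, Irf9, Ifi204, Ifi44, Rtp4, Trim30a, Oas2, Oasl2, Usp18, Cmpk2, Isg20, Oas3, Samd9l and Oas1a. All 40 differences were above 0, as were 43.8% of those of all genes. The 4 Ly86 tumors lay wholly above the 3 vector tumors for 6 genes, namely Slfn5, Ifi27l2a, Ifit1, Ifi204, Rtp4 and Oasl2, where 4.71% of all genes did so, and wholly below them for none, against 5.75% of all genes. The 40 genes were measured in the same 7 tumors, so their shared direction is not 40 separate observations.

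**Figure D1:**
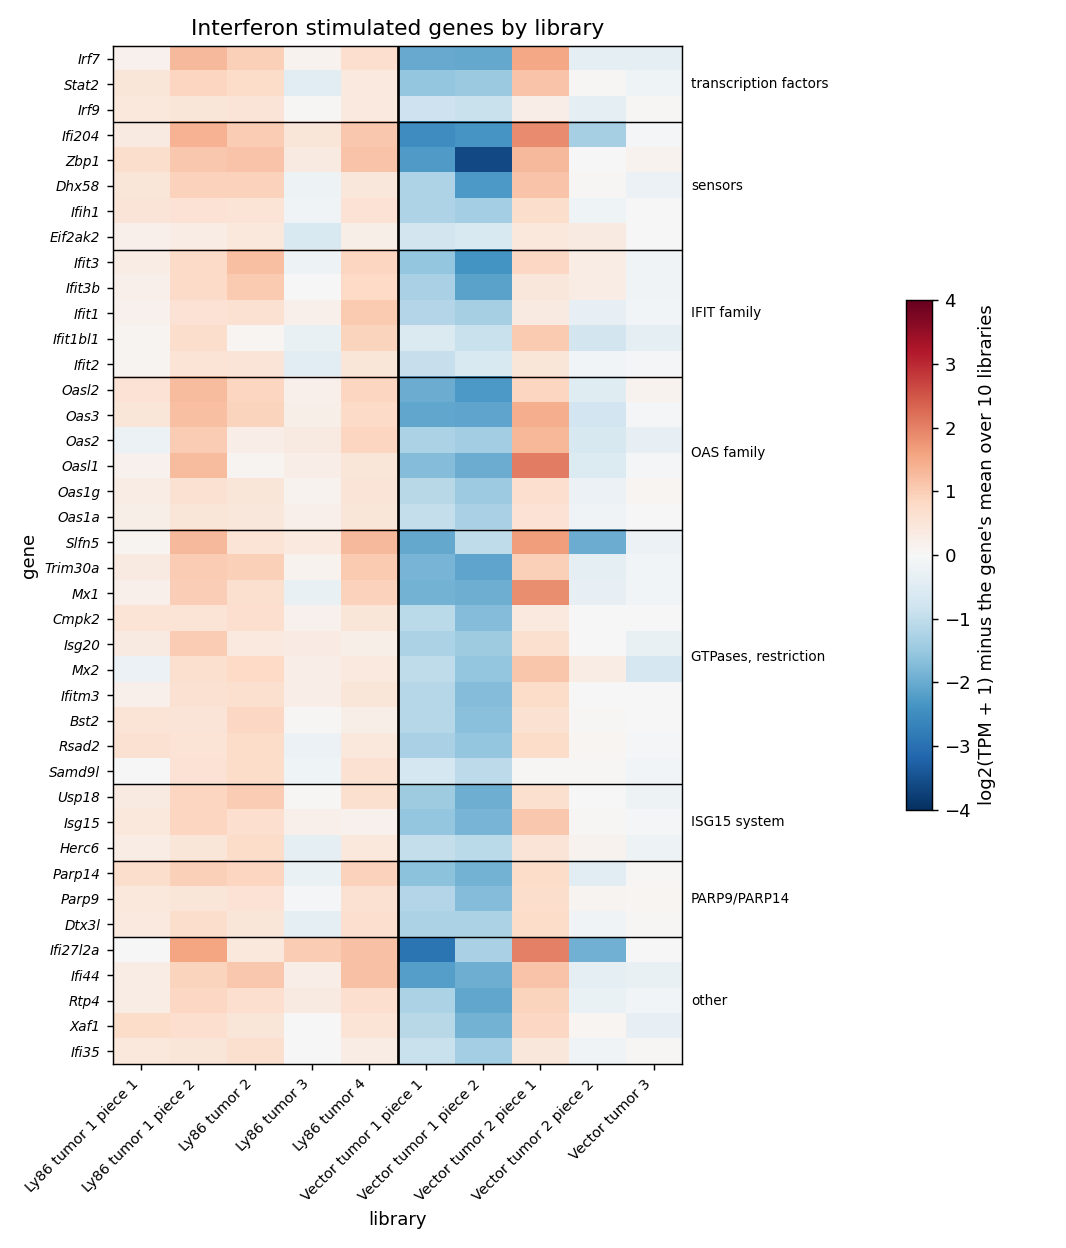
Level of each of the 40 genes (rows, grouped by role) in each library (columns, Ly86 left of the black line, vector right of it), as log2(TPM + 1) minus the gene's mean over the 10 libraries. Both pieces of vector tumor 1 are low in all rows, and the first piece of vector tumor 2 is the highest column for 23 of the 40 genes.

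The tumors that set the difference can be read from single libraries. A piece of vector tumor 1 was the lowest library for all 40 genes, where it was so for 21.2% of all genes. Both of its pieces lay below every Ly86 library for all 40, against 16.6% of all genes. The first piece of vector tumor 2 was the highest of the 10 libraries for 23 of the 40 genes, against 19.7% of all genes. The remaining maxima were in Ly86 tumor 2 for 10 genes, the second piece of Ly86 tumor 1 for 4 and Ly86 tumor 4 for 3. Vector tumor 3 was below every Ly86 tumor for 26 genes (14.2% of all genes) and vector tumor 2 for 7 (20.6% of all genes). Within the Ly86 group, tumor 3 was the lowest for 34 of the 40 genes, where it was so for 46.1% of all genes.

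Leaving out vector tumor 1 moved the median difference of the 40 genes to 0.37, with 39 of them still above 0 (44.5% of all genes were) and Eif2ak2 at -0.11. Without vector tumor 2 the median was 1.30, and 36 of the 40 genes reached an unadjusted p below 0.05 (8.55% of all genes did so on the higher side). That count was 31 without the first piece of vector tumor 2 alone (11.2%), 6 without vector tumor 1 (3.34%), 5 without Ly86 tumor 1 (4.13%), 3 without Ly86 tumor 2 (4.57%) and 4 without Ly86 tumor 4 (3.44%). With first pieces alone for the divided tumors it was 0 (0.866%), with a median of 0.56, and with second pieces alone 30 (10.8%), with a median of 1.15. The groups were apart for 28 of the 40 genes without Ly86 tumor 3 (9.97% of all genes), for 26 without vector tumor 2 (10.4%), for 21 without its first piece (8.53%), for 21 with second pieces only (8.34%) and for 0 with first pieces only (1.46%).

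**Figure D2:**
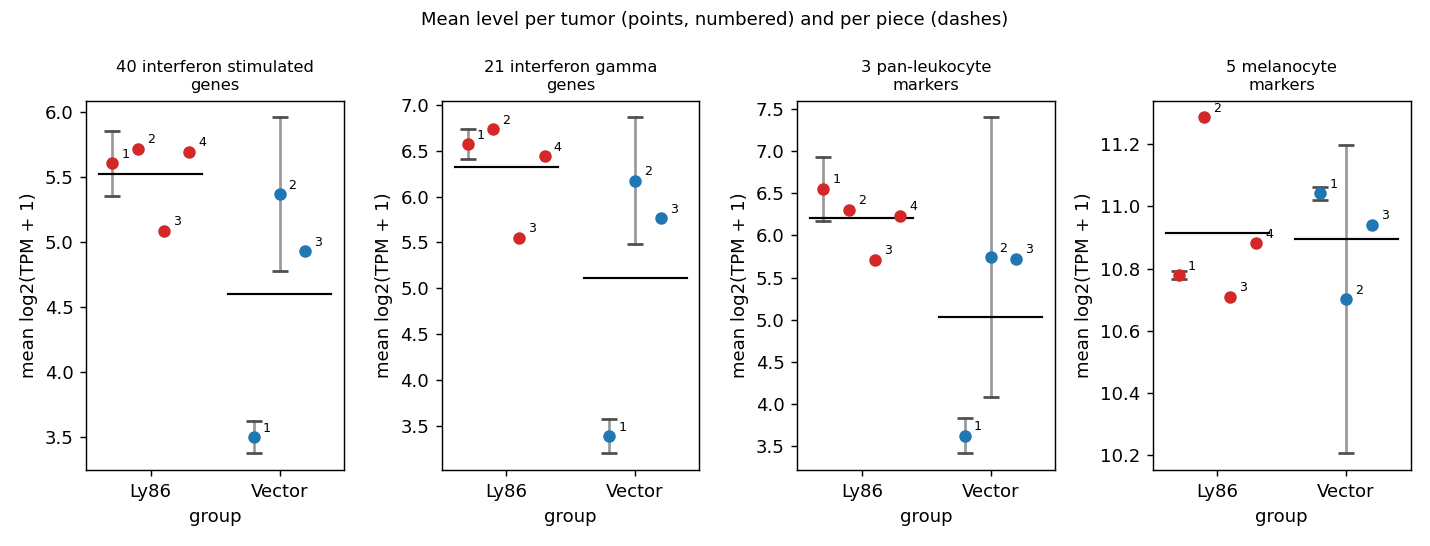
Mean log2(TPM + 1) of 4 gene lists by group, with numbered points for tumors, dashes joined by a line for the pieces of divided tumors and black bars for group means. Vector tumor 1 is lowest for the 40 interferon stimulated genes (3.49), the interferon gamma genes (3.39) and the pan-leukocyte markers (3.63), and the pieces of vector tumor 2 lie far apart on all lists.

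Markers of most leukocytes and of fibroblasts also averaged higher in Ly86 tumors, and their part in the result was not tested. The pan-leukocyte markers Ptprc, Laptm5 and Coro1a were higher in Ly86 tumors for 3 of 3, with a mean level in log2(TPM + 1) of 6.20 ± 0.35 for the Ly86 group (SD, n = 4), against 5.03 ± 1.22 for the vector group (SD, n = 3). Their summed level was 181 to 414 TPM in Ly86 libraries and 36.1 to 606 TPM in vector libraries. All 11 macrophage markers averaged higher as well, with sums of 1833 to 3674 TPM in Ly86 libraries against 372 to 5139.5 TPM in vector libraries. The 7 T cell markers were all on the higher side, at 32.5 to 75.8 TPM in Ly86 libraries against 4.09 to 103 TPM in vector libraries. So were the 5 fibroblast markers, at 667 to 1984 TPM in Ly86 libraries against 62.8 to 3445 TPM in vector libraries. Those 5 differed by 1.28 to 2.39, and all reached an unadjusted limma p below 0.05. The tumor groups did not overlap for 4 of them, against 4.71% of all genes. That held for 1 of 7 T cell and 1 of 3 pan-leukocyte markers. Median differences were 1.24 for macrophage, 1.21 for pan-leukocyte and 1.18 for T cell markers, against 0.86 for the 40 genes. They were 0.35 for conventional dendritic cell, 0.37 for B cell and 0.04 for endothelium markers. Of the 5 genes listed for plasmacytoid dendritic cells, a main source of interferon alpha, only Cox6a2 and Pacsin1 passed the filter on low values. Cox6a2 was highest, at 14.8 TPM, in the second piece of Ly86 tumor 1, which also had the highest skeletal muscle marker sum, 767 TPM. Whether Cox6a2 marks these dendritic cells here was not tested. Siglech, the defining one, had 0.10 to 1.54 TPM in Ly86 libraries and 0 to 0.73 TPM in vector libraries. Of the 5 genes on the NK cell list, only Prf1 and Gzmb passed the filter, and both averaged higher. Ncr1, Klrb1c and Klre1 did not pass, with at most 3.51 TPM in any library, so NK cells could not be read from them. The 4 neutrophil markers that passed the filter also averaged higher, as did 2 of 3 for conventional dendritic cells, 1 of 1 for B cells and 2 of 4 for endothelium. Without vector tumor 1 these counts were 4 of 4, 1 of 3, 0 of 1 and 1 of 4. All 4 keratinocyte, all 4 skeletal muscle and both erythroid markers tested averaged lower. The keratinocyte sum was nevertheless highest in the first piece of Ly86 tumor 1, at 2323 TPM, against at most 630 TPM in vector libraries. Without the first piece of vector tumor 2, 3 of 4 keratinocyte and 2 of 4 skeletal muscle markers averaged higher, and 0 of 2 erythroid markers. The 5 melanocyte markers had a median difference of 0.01, with 3 higher and 2 lower.

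Among the transcription factors, Irf9, the DNA-binding subunit of ISGF3, had 49.7, 51.5, 52.6, 37.6 and 48.1 TPM in the Ly86 libraries, against 20.3, 19.3, 44.2, 27.8 and 37.6 TPM in the vector libraries. Its tumors overlapped only through vector tumor 3, which stood level with Ly86 tumor 3. Irf9 differed by 0.64 (SE 0.23, limma adjusted p = 0.441). Stat2, its partner in ISGF3, had 57.2, 73.8, 68.4, 29.1 and 53.4 TPM in the Ly86 libraries, against 13.1, 13.8, 89.4, 41.3 and 35.6 TPM in the vector libraries. The first piece of vector tumor 2 was its highest library, and Ly86 tumor 3 lay below vector tumor 3. Stat2 differed by 0.71 (SE 0.49, adjusted p = 0.623). Irf7, which drives the transcription of interferon alpha genes, had 49.5, 109, 85.8, 48.7 and 71.6 TPM in the Ly86 libraries, against 10.2, 9.86, 132, 34.1 and 34.4 TPM in the vector libraries. It covered a wider range than Irf9 and differed by 1.22 (SE 0.54, adjusted p = 0.468). The median of the 3 was 0.71, and 0.36 without vector tumor 1.

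The sensors of foreign nucleic acid held both the largest and the smallest difference of all 40 genes. Ifi204, a DNA-binding protein of the HIN-200 family, had 41.2, 86.5, 66.3, 45.7 and 69.5 TPM in the Ly86 libraries, against 4.95, 5.52, 121, 12.3 and 30.4 TPM in the vector libraries. All 4 Ly86 tumors lay above the vector tumors, yet the first piece of vector tumor 2 exceeded every other library. Its difference was 1.60 (SE 0.58, adjusted p = 0.441) in limma. Zbp1, a sensor of Z-form nucleic acid that can trigger necroptosis, had 164, 214, 219.7, 128 and 221 TPM in the Ly86 libraries, against 20.0, 7.28, 248, 98.3 and 111 TPM in the vector libraries. The second piece of vector tumor 1 stood out as the lowest library, and Zbp1 differed by 1.59 (SE 0.76, adjusted p = 0.494). Dhx58, which encodes the RNA helicase LGP2, and Ifih1, which encodes the double-stranded RNA sensor MDA5, differed by 0.94 (SE 0.52) and 0.72 (SE 0.37). Eif2ak2, which encodes the RNA-activated kinase PKR, had 45.8, 49.6, 54.0, 26.0 and 47.2 TPM in the Ly86 libraries, against 23.6, 25.9, 53.7, 51.7 and 39.5 TPM in the vector libraries. Its groups overlapped broadly, with Ly86 tumor 3 near the level of vector tumor 1, and the difference was 0.18 (SE 0.31, adjusted p = 0.882).

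IFIT proteins bind viral RNA and block its translation, and their genes lie side by side on chromosome 19. Ifit1 had 22.3, 30.4, 30.8, 22.9 and 42.6 TPM in the Ly86 libraries, against 8.18, 7.33, 25.5, 15.5 and 18.6 TPM in the vector libraries. Its tumor groups did not overlap, although the first piece of vector tumor 2 lay inside the Ly86 range. Ifit1 differed by 1.01 (SE 0.33, adjusted p = 0.437) in limma. Ifit2, whose protein pairs with the other IFITs, had 40.2, 55.4, 53.3, 27.8 and 52.3 TPM in the Ly86 libraries, against 19.1, 24.2, 52.4, 34.6 and 34.9 TPM in the vector libraries. Ly86 tumor 3 was below vector tumor 3 there, and Ifit2 differed by 0.45 (SE 0.29, adjusted p = 0.599). Ifit3 and its near-copy Ifit3b had the identical promoter stretches shown above and can take each other's reads, which makes the split between them uncertain. Ifit3 had 108, 150.2, 200.5, 76.2 and 159.7 TPM in the Ly86 libraries, against 29.4, 15.7, 154, 108 and 79.2 TPM in the vector libraries. Ifit3b, at a lower level, had 18.6, 27.9, 34.1, 15.7 and 28.3 TPM in the Ly86 libraries, against 5.89, 2.83, 22.3, 19.9 and 14.4 TPM in the vector libraries. The pair ran in parallel from library to library, with differences of 1.12 (SE 0.57) and 1.07 (SE 0.48). Ifit1bl1, a further copy, was the least abundant of the 40 genes at 0.88 to 3.22 TPM in Ly86 libraries and 0.25 to 3.76 TPM in vector libraries, and differed by 0.58 (SE 0.35).

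OAS enzymes make oligoadenylates that switch on RNase L, which degrades RNA. Oas2 had 8.45, 21.2, 12.4, 13.2 and 19.1 TPM in the Ly86 libraries, against 3.62, 3.20, 26.8, 6.09 and 7.76 TPM in the vector libraries. All 5 Ly86 libraries lay within the range of the vector libraries, whose highest value was the first piece of vector tumor 2. Oas2 differed by 0.91 (SE 0.36, adjusted p = 0.453) in limma. Oasl1, known in mouse as an inhibitor of Irf7 translation, had 11.4, 25.2, 10.7, 12.3 and 14.4 TPM in the Ly86 libraries, against 2.26, 1.74, 43.9, 6.55 and 9.50 TPM in the vector libraries. It was the only one of the 40 genes whose highest tumor mean was in a vector tumor, tumor 2, and its difference was 0.79 (SE 0.54, adjusted p = 0.621). Oas1a had 55.4, 66.6, 65.4, 54.6 and 65.9 TPM in the Ly86 libraries, against 24.1, 18.6, 70.9, 42.6 and 46.5 TPM in the vector libraries. Oas1g, its near-identical neighbor on chromosome 5, had 26.9, 34.0, 31.3, 24.2 and 31.8 TPM in the Ly86 libraries, against 9.73, 7.38, 35.3, 18.4 and 23.1 TPM in the vector libraries. Oas1a exceeded Oas1g in every library, with differences between groups of 0.68 (SE 0.29) and 0.73 (SE 0.34), and reads may be split between them. Oas3 and Oasl2 had the widest differences of the family, 1.30 (SE 0.54) and 1.32 (SE 0.54). Oas3 was at 6.46 to 13.8 TPM in Ly86 libraries, and at 0.49 and 0.46 TPM in the pieces of vector tumor 1. The first piece of vector tumor 2 was the highest library for 5 of the 6 OAS genes, the exception being Oasl2. The family median was 0.85, and 0.37 without vector tumor 1.

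The group of restriction factors and GTPases held the gene with the smallest p of all 40. Slfn5, a member of the Schlafen family, had 14.1, 33.5, 19.4, 17.2 and 33.3 TPM in the Ly86 libraries, against 2.41, 5.99, 43.4, 2.53 and 11.1 TPM in the vector libraries. Its groups did not overlap once pieces were averaged, but the first piece of vector tumor 2 was the highest library and the second was close to the lowest. Slfn5 differed by 1.36 (SE 0.36, adjusted p = 0.437) in limma, and 164 genes of the transcriptome had a smaller p. Mx1, a dynamin-like GTPase that blocks influenza virus and is disrupted in most inbred laboratory strains, had 11.7, 20.8, 16.1, 7.91 and 20.0 TPM in the Ly86 libraries, against 1.95, 1.83, 38.9, 7.69 and 9.21 TPM in the vector libraries. The first piece of vector tumor 2 was its highest library, while the second lay below every Ly86 library. Mx1 differed by 0.89 (SE 0.59, adjusted p = 0.612). Mx2, its paralog, differed by 0.83 (SE 0.42).

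Trim30a, which restrains Toll-like receptor signaling in mouse, differed by 1.30 (SE 0.51). Cmpk2, a mitochondrial nucleotide kinase gene, and its neighbor Rsad2, which encodes viperin, differed by 0.88 (SE 0.36) and 0.73 (SE 0.42). The exonuclease gene Isg20 differed by 0.84 (SE 0.35) and Samd9l, which encodes a translation repressor, by 0.67 (SE 0.28). The membrane proteins Bst2 (tetherin, which holds budding virus at the cell surface) and Ifitm3 (which hinders viral fusion) were the most abundant of the 40 genes. Ifitm3 had 1345, 1778, 1792, 1382 and 1608 TPM in the Ly86 libraries, against 525, 344, 1944, 1138 and 1133 TPM in the vector libraries. Bst2 had 1116, 1099.7, 1383, 793 and 903 TPM in the Ly86 libraries, against 348, 242, 1175, 795 and 783 TPM in the vector libraries. Both were lowest in the second piece of vector tumor 1, and they differed by 0.82 (SE 0.38) and 0.76 (SE 0.40). Over the 10 genes of the group the median was 0.84, and 0.38 without vector tumor 1.

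Isg15 is a ubiquitin-like protein that is attached to other proteins, in mouse by the ligase Herc6, and removed by Usp18, which also damps signaling at the interferon receptor. Isg15 had 129, 174, 152, 109 and 107 TPM in the Ly86 libraries, against 31.6, 25.5, 202, 99.4 and 92.0 TPM in the vector libraries. It peaked in the first piece of vector tumor 2, and Isg15 differed by 0.82 (SE 0.47, adjusted p = 0.563). Usp18 had 29.0, 41.0, 46.5, 23.0 and 35.7 TPM in the Ly86 libraries, against 7.69, 4.98, 35.7, 22.2 and 19.4 TPM in the vector libraries. Ly86 tumor 3 lay between the pieces of vector tumor 2, and Usp18 differed by 1.10 (SE 0.45, adjusted p = 0.455) in limma. Herc6 had 55.3, 64.2, 76.5, 34.2 and 61.3 TPM in the Ly86 libraries, against 22.9, 21.1, 65.1, 50.6 and 39.2 TPM in the vector libraries. Its libraries spanned 1.81 log2 units, against 2.94 for Isg15, and Herc6 differed by 0.58 (SE 0.35, adjusted p = 0.578).

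Parp9 and Dtx3l form a complex of an ADP-ribosyltransferase family member and a ubiquitin ligase, and Parp14 is a related transferase. Parp14 had 45.2, 53.1, 49.5, 22.4 and 52.2 TPM in the Ly86 libraries, against 7.99, 6.64, 46.0, 20.1 and 27.9 TPM in the vector libraries. Ly86 tumor 3 was the lowest Ly86 tumor by a wide margin, and Parp14 differed by 1.10 (SE 0.50, adjusted p = 0.473). Dtx3l had 28.6, 35.6, 30.6, 16.6 and 34.8 TPM in the Ly86 libraries, against 8.28, 8.44, 36.6, 19.2 and 22.3 TPM in the vector libraries. It showed the same low Ly86 tumor 3 and differed by 0.65 (SE 0.40, adjusted p = 0.587). Parp9 differed by 0.72 (SE 0.41).

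Among the remaining inducible genes, Ifi27l2a, which encodes a small membrane protein, had 74.8, 221, 98.9, 151 and 167 TPM in the Ly86 libraries, against 8.85, 29.7, 299.6, 18.7 and 72.5 TPM in the vector libraries. It had the widest range over libraries of the 40 genes, 4.93 log2 units, and its groups did not overlap by tumor. Ifi27l2a differed by 1.55 (SE 0.49, adjusted p = 0.437) in limma. Ifi35, which binds the protein Nmi, had 88.5, 91.0, 102, 66.5 and 80.5 TPM in the Ly86 libraries, against 34.8, 24.7, 89.6, 59.2 and 67.3 TPM in the vector libraries. Its values lay closer together, and Ifi35 differed by 0.66 (SE 0.31, adjusted p = 0.484). Ifi44, Rtp4 and the apoptosis-related gene Xaf1 differed by 1.44 (SE 0.54), 1.06 (SE 0.41) and 0.89 (SE 0.41). Rtp4 was tightly grouped in Ly86 tumors at 6.38 ± 0.15 log2(TPM + 1) (SD, n = 4), against 5.32 ± 1.05 (SD, n = 3) in vector tumors.

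**Figure D3:**
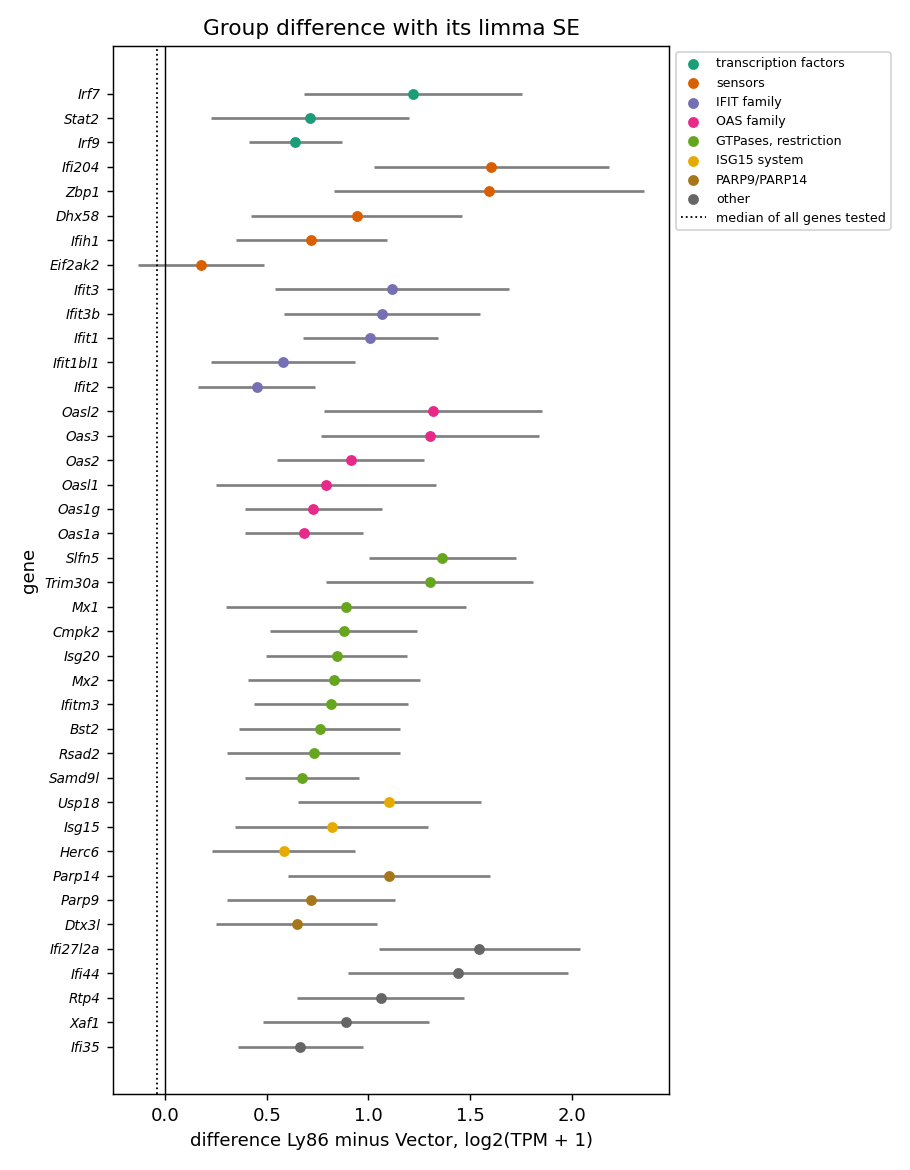
Group difference of each gene on the log2(TPM + 1) scale (points, colored by role) with its standard error from limma (bars), and the median of all genes tested (dotted line). All points lie above 0, from 0.18 for Eif2ak2 to 1.60 for Ifi204, and the adjusted p of the 40 genes ran from 0.437 to 0.882.

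Spread differed between the groups. The SD among tumors was larger in the vector group than in the Ly86 group for 39 of the 40 genes, Ifit1bl1 being the exception, against 47.1% of all genes. Pieces of the same tumor also differed. In Ly86 tumor 1, the second piece was above the first for 37 of the 40 genes, the exceptions being Rsad2, Bst2 and Xaf1, with a median of 0.44 against -0.01 for all genes. In vector tumor 1, the second piece was above the first for 8 genes, with a median of -0.26 against 0.13 for all genes. In vector tumor 2, only Samd9l was not lower in the second piece, and the median was -0.88 against 0.01 for all genes. The widest gaps there were in Slfn5 (second minus first -3.65 on the log2 scale) and Ifi27l2a (-3.93).

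The median gap between the pieces of vector tumor 2 was thus similar in size to the median difference between the groups. The pan-leukocyte mean was 7.40 log2(TPM + 1) in the first piece of vector tumor 2 and 4.08 in the second, and the fibroblast mean 8.07 and 2.45. The melanocyte mean was 10.21 and 11.20 in the same pieces. For the interferon stimulated genes the first piece held 5.96 and the second 4.78, so that the second piece stayed above vector tumor 1, at 3.62 and 3.37. The pan-leukocyte mean of the second piece was near the 3.41 and 3.84 of that tumor, and its macrophage mean, 4.27, near the 4.13 and 4.68 there. Its T cell mean, 1.54, was above the 0.63 and 0.62 of vector tumor 1. Ifng was also higher in it, at 2.13 TPM against 0 and 0.09 TPM, so immune content was not matched. This was a comparison of single libraries with no replicate check, and the part of cell content in it was not tested.

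**Figure D4:**
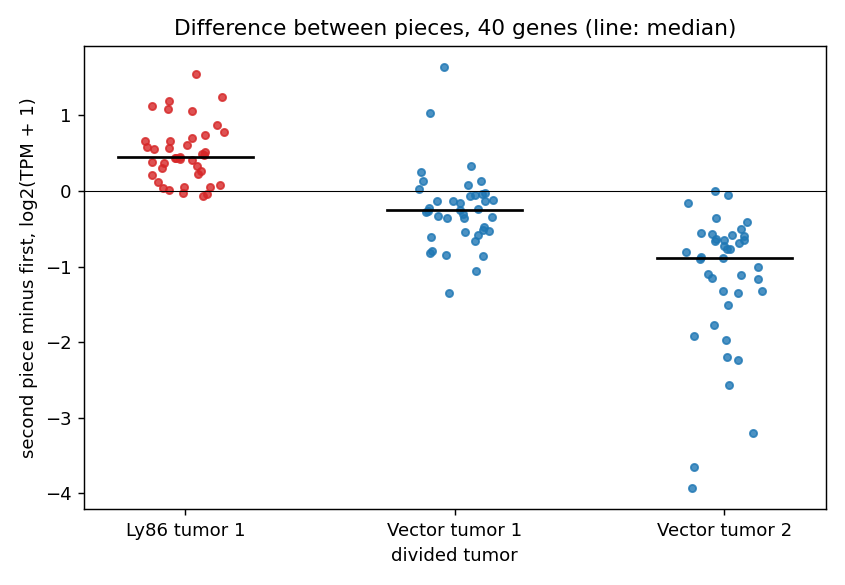
Second piece minus first piece of each divided tumor on the log2(TPM + 1) scale, 1 point per gene for the 40 genes, with a black line at the median. The median is 0.44 in Ly86 tumor 1, -0.26 in vector tumor 1 and -0.88 in vector tumor 2.

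Upstream of these genes, most of the interferons themselves could not be read. Of 20 ligand genes of type I and type III interferon, only Ifna2 and Ifnz were in the table used here, and the other 18 were not analysed here. Ifna2 was above 0 in 2 libraries, both of Ly86 tumors, with at most 0.49 TPM, and was listed at 0 in all vector libraries. Ifnz was above 0 in 3 libraries, with at most 0.20 TPM in Ly86 tumors and 0.08 TPM in vector tumors. Neither passed the filter on low values.

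Of the receptor chains and kinases, 3 of 4 averaged higher, with a median difference of 0.14 (0.02 without vector tumor 1), and 0 passed the test. Ifnar1 had 47.9, 50.4, 52.6, 37.8 and 49.2 TPM in the Ly86 libraries, against 44.3, 56.9, 50.6, 43.0 and 54.0 TPM in the vector libraries. Its groups overlapped fully, with a difference of -0.10 (SE 0.13, adjusted p = 0.828). Ifnar2, the second chain, had 62.2, 77.4, 75.0, 63.4 and 77.4 TPM in the Ly86 libraries, against 36.2, 38.2, 88.0, 48.0 and 55.7 TPM in the vector libraries. It was lowest in vector tumor 1 and differed by 0.46 (SE 0.18, adjusted p = 0.453). Jak1 and Tyk2 differed by 0.20 (SE 0.18) and 0.09 (SE 0.24).

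Of 14 genes that induce interferon, from nucleic acid sensors to the kinases Tbk1 and Ikbke, 12 averaged higher with a median difference of 0.33, and 2 reached an unadjusted p below 0.05 on that side. Over all genes, 43.8% averaged higher and 5.78% reached that level on the higher side. The smallest p belonged to Tlr3, the endosomal receptor for double-stranded RNA, at 0.62 (SE 0.19). Cgas and Traf3 were on the lower side, at -0.08 (SE 0.20) and -0.30 (SE 0.19). Of 5 feedback inhibitors, all averaged higher with a median of 0.51, which was 0.24 with 4 of 5 higher without vector tumor 1 and 0.17 with first pieces only. Socs1, which blocks JAK kinases, had 12.9, 14.3, 12.6, 6.40 and 9.21 TPM in the Ly86 libraries, against 1.16, 0.88, 6.44, 2.43 and 4.34 TPM in the vector libraries. Its tumor groups did not overlap, and it differed by 1.54 (SE 0.39, adjusted p = 0.437) in limma, while Ptpn2 and Pias1 differed by 0.07 (SE 0.12) and 0.05 (SE 0.18).

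A wider list of interferon stimulated genes was read in the same way. Of 46 tested members, 45 averaged higher, 16 reached an unadjusted p below 0.05 and 0 passed limma, with a median difference of 0.84 (0.30 without vector tumor 1 and 0.54 with first pieces only). The shares over all genes were 43.8% higher and 5.78% at that unadjusted level on the higher side. Sp100, a nuclear body protein gene, had the smallest p and differed by 1.51 (SE 0.46). The 7 relatives of Ifi204 in this list, picked out after their values were seen, differed by 1.83 (SE 0.57) for Ifi205, 1.61 (SE 0.70) for Ifi211, 1.55 (SE 0.52) for Mndal, 1.34 (SE 0.59) for Ifi203, 1.21 (SE 0.53) for Ifi207, 1.18 (SE 0.51) for Ifi213 and 1.12 (SE 0.48) for Ifi209, and such related genes can take each other's reads. At the other end Pnpt1, Tdrd7 and Pml differed by -0.002 (SE 0.12), 0.06 (SE 0.16) and 0.08 (SE 0.28).

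The interferon gamma list held Ifng, the receptor genes Ifngr1 and Ifngr2, and genes driven mainly by interferon gamma. It averaged higher by a median of 1.24 over 21 tested members. Of these, 20 were higher (43.8% of all genes were), the exception being Ifngr2 at -0.11 (SE 0.14). An unadjusted p below 0.05 was reached by 3 (5.78% of all genes did so on the higher side). The median of the list was 0.33 without vector tumor 1, against 0.37 for the 40 genes above in the same setting. With all tumors it was 1.24 against 0.86, and without vector tumor 2 it was 1.86 against 1.30. First pieces alone gave 0.95 against 0.56, and second pieces alone 1.67 against 1.15. Ifng itself had 4.88, 5.92, 5.24, 2.35 and 5.52 TPM in the Ly86 libraries, against 0, 0.09, 6.30, 2.13 and 2.44 TPM in the vector libraries. It was at 0 in 1 piece of vector tumor 1 and highest in a vector library, and differed by 1.07 (SE 0.52, adjusted p = 0.497). Irf1, a transcription factor induced early by interferon gamma, had 234, 239, 281, 117 and 201 TPM in the Ly86 libraries, against 36.7, 27.5, 226, 129.7 and 125 TPM in the vector libraries. Its vector libraries again ran from far below to inside the Ly86 range, and it differed by 1.16 (SE 0.55, adjusted p = 0.491). Nos2, which makes nitric oxide, had the smallest p of this list and differed by 1.68 (SE 0.62). The 2 lists have no gene in common, but all 7 tumors enter both, and no test of a difference between the lists was made.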

How the data were processed

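RNA sequencing of 10 tumor pieces from 7 tumors was deposited as 1 table. The sources name STAR 2.7.10b and RSEM 1.3.3 and build mm39, per the submitters' processing notes. The log scale was not stated, and the values were read as log2(TPM + 1): the authors' deposited log2 values, once reversed, summed to 994679 to 996446 TPM in each library, and 99.9% were multiples of 0.01 TPM. TPM carries no depth, so read counts, count-based intervals for single libraries and floors could not be had.

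Pieces were averaged per tumor. Genes with a mean of at least 1 TPM over the tumors (14556 of 27919) were fitted with limma 3.58.1 in R 4.3.3 (trend on, Benjamini-Hochberg adjustment over all genes tested, threshold 0.05). Differences understate changes of low genes because of the pseudocount of 1. The p-values cover only the spread among these tumors. Each role group names the genes with the smallest and the largest p by library, along with near-identical pairs. Other genes given by library (Irf7, Zbp1, Ifitm3, Bst2, Isg15 and pathway genes) were chosen after their values were seen. Members, pathway lists and marker lists were chosen with earlier results of these data known. Alternatives covered the pseudocount, the filter, scaling, treatment of pieces, weights, blocking and each tumor left out. Leaving out 1 piece of vector tumor 2, the first, was chosen after seeing the data. Figures used matplotlib 3.10.9 under Python 3.11.15.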

Additional observations from a re-analysis of the deposited data

Results flagged for a closer look

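In 3 of 42 results examined, 1 of the 4 Ly86 tumors lay far from the others, which chance gives in about 1 of 20 groups, and the tumor was Ly86 tumor 3 each time. Oasl2, an OAS family gene, was at 6.53, 6.46, 5.81 and 6.45 log2(TPM + 1) in Ly86 tumors 1 to 4, against 3.46, 5.78 and 5.74 in vector tumors 1 to 3, and the gap of Ly86 tumor 3 below the next Ly86 tumor was 0.885 of the range of the Ly86 group. Ifih1, the gene of the RNA sensor MDA5, was at 4.87, 4.88, 4.18 and 4.92 log2(TPM + 1) in Ly86 tumors 1 to 4, against 3.04, 4.59 and 4.35 in vector tumors 1 to 3, and the gap of Ly86 tumor 3 below the next Ly86 tumor was 0.940 of the range of the Ly86 group. Parp14, an ADP-ribosyltransferase gene, was at 5.64, 5.66, 4.55 and 5.73 log2(TPM + 1) in Ly86 tumors 1 to 4, against 3.05, 4.98 and 4.86 in vector tumors 1 to 3, and the gap of Ly86 tumor 3 below the next Ly86 tumor was 0.923 of the range of the Ly86 group. For Parp14 and Ifih1, Ly86 tumor 3 lay below vector tumors 2 and 3. For Oasl2 it stayed above every vector tumor. The 42 results were read in the same 4 Ly86 tumors, so they are not separate observations. Ly86 tumor 3 was also the lowest Ly86 tumor for 34 of the 40 genes, against 46.1% of all genes. The reason for the low values of Ly86 tumor 3 was not tested.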

How the results depend on the processing

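The mean difference of the 40 genes stayed above 0 in all 20 alternatives, from 0.38 without vector tumor 1 to 1.32 without vector tumor 2. The count of genes passing limma's adjusted p, 0 as reported, was 1 with first pieces only, 6 with second pieces only, 1 without the first piece of vector tumor 2, 0 to 2 with 1 tumor left out, and 1832 with array weights. Array weights gave vector tumor 3 a weight of 22.8 and every other tumor less than 1, and the weight estimate stopped before it converged. Under those weights 6 of the 40 genes passed (4.3% of all genes did so on the higher side), namely Isg20 at 0.72, Mx2 at 1.08, Oas2 at 0.84, Ifi44 at 1.16, Xaf1 at 0.85 and Slfn5 at 1.03, and Ly86 passed at 1.07 (adjusted p = 0.0424). In every other alternative 0 of the 40 passed. The 16 genes at an unadjusted p below 0.05 became 9 with no filter (3.28% of all genes on the higher side), 6 with the tumor number as a replicate block (2.48%) and 27 with array weights (12.4%). Under the other settings of pseudocount, filter, scaling, robust fit and random block, that count was 14 to 22 (3.48% to 6.49%). The 6 genes whose groups did not overlap became 10 under median-of-ratios scaling (5.39%) and 10 under quantile normalization (4.24%). Counts that moved by more than 1.5 times with a tumor or piece left out are given with the results. With 1 tumor left out, Eif2ak2 ran from -0.11 (without vector tumor 1) to 0.42, and the cause of the change of sign was not tested. Ifit1bl1 was not tested at a minimum mean of 5 TPM. With the tumor number as a replicate block, 0 genes and 0 of the 40 passed, the median of the 40 was 0.84 and the mean difference 0.87. No vector tumor has the number 4, so Ly86 tumor 4 added nothing to these differences. The median and mean were the same as without Ly86 tumor 4. Tumors of the same number did not deviate together (correlations across genes of -0.17, -0.11 and -0.31), so the number was not taken to pair them. The number of tumors, 4 and 3, and the unknown read depth limit what these data can show.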
